A study of Rattus norvegicus with 12 samples.

Results

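The antioxidant enzyme genes are 10 genes of the enzymes that remove superoxide, hydrogen peroxide, quinones and haem or that make glutathione, chosen by their symbols in the array annotation (Sod1, Sod2, Sod3, Cat, Gpx1, Gpx3, Nqo1, Hmox1, Gclc and Gclm) out of 26456 distinct gene names on the array. Each had 1 probe. Total RNA came from the lumbar mammary gland of female Wistar rats, 1 array per rat, whose dams were fed the diet Altromin C1000 with 17.0% protein (NP) or Altromin C1003 with 8.8% protein (LP) during pregnancy. All offspring were suckled by dams on standard chow, received it themselves from weaning, and were examined at day 21 or day 28 of life, with 3 rats in each of the 4 groups. The piece of gland was whole, with visible lymph nodes removed, so that it held fat, ducts, vessels and blood together. The question was whether the maternal diet, or the week after weaning, went with other transcript levels of these enzymes.

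Superoxide dismutases turn superoxide into hydrogen peroxide, in the cytosol (Sod1), in mitochondria (Sod2) and outside the cell (Sod3). Catalase and the glutathione peroxidases remove the peroxide, the latter at the cost of glutathione, whose synthesis starts with glutamate-cysteine ligase. Several of these genes, Nqo1, Hmox1, Gclc and Gclm among them, are known targets of the transcription factor Nrf2, and the mammary fat pad expresses many of them in adipocytes as well as in epithelium and macrophages.

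Values are log2 signals relative to the 75th percentile of the gene spots of the array, so that 0 is a signal equal to that percentile. The share of gene spots well above background was 74.8% to 79.6%, and 0 spots were saturated. For 9 of the 10 genes the probe stood well above background on all 12 arrays and was tested. The Gclm probe, to the modifier subunit of glutamate-cysteine ligase, was not well above background on any array, and no difference is given for it. Its sequence is 85.0% A and T, against 45.0% to 65.0% for the other 9 probes. With 3 arrays in a group, their number limits the precision.

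The LP array of day 21 with replicate label 6a stood apart, with a median correlation of 0.967 to the other arrays, against 0.976 to 0.991 for the rest. On it the 7 lymphocyte markers summed to 0.304 times the 75th percentile signal, against 7.64 to 19.0 on the other arrays, the most abundant of them being Cd3d. The 6 skeletal muscle markers, led by Mylpf, summed to 75.1 on it, the highest of the 12 arrays. That sum was also high on the LP array 6f of day 28 (63.0) and the NP array 6a of day 21 (50.9). The NP array of day 28 with label 4f came next, at 0.976. Where leaving out either array moved the difference of a named pathway gene by over 1.5 times, the value without it follows. Each day had a slide of its own, so that day, slide and scan cannot be told apart, whereas both diets of a day shared a slide. Within a slide, diet was partly tied to the row. Every NP array lay in row 1, as did the LP arrays 4a and 4f, whereas the LP arrays 6a, 7c, 6f and 7f lay in row 2.

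The tissue label was checked against marker genes. All 8 adipocyte markers and all 7 luminal epithelial markers were well above background on all 12 arrays, as were 5 of the 6 basal and myoepithelial markers, 5 of 5 fibroblast, 4 of 4 endothelial and 8 of 8 macrophage markers. Of the 4 brown adipocyte markers, Elovl3 was not well above background on any array. Markers of other tissues passed as well, namely 5 of 6 skeletal muscle, 5 of 7 lymphocyte, 4 of 5 erythroid and 3 of 5 liver markers. Presence of a marker alone therefore does not single out the gland. In such mixed tissue, fewer cells of a type and less RNA per cell cannot be told apart.

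Sod3, the extracellular enzyme, was the member called between the days. On the NP arrays of day 21 its log2 signal was 3.50, 3.32 and 3.65, and on the LP arrays of that day it was 3.20, 3.29 and 3.60. At day 28 the NP arrays gave 4.28, 3.97 and 4.10 and the LP arrays 4.11, 3.70 and 4.10. All 6 arrays of day 28 lay above all 6 of day 21, with the LP array 6f of day 28 nearest to the younger rats. The mean rose by 0.62 (SE 0.11, 1.53-fold) with an adjusted p of 0.0303 in limma. The increase was 0.63 from the NP group means and 0.60 from the LP group means, and the difference between these increases was -0.03 (SE 0.22). The call was lost with quantile normalization (adjusted p = 0.0574) and without the LP array 6a of day 21 (0.60, adjusted p = 0.0716), as it was without each of 7 other single arrays.

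Sod1, the cytosolic enzyme, gave 4.33, 4.24 and 4.39 on the NP arrays of day 21 and 4.60, 4.59 and 4.64 on those of day 28. In LP rats it was 4.27, 4.61 and 4.37 at day 21 and 4.72, 4.41 and 4.78 at day 28. The NP groups of the 2 days did not overlap, whereas the LP groups did, with array 6a high at day 21 and 6f low at day 28. For Gpx1 it was the LP groups that did not overlap, by a very small gap (3.981 against 3.9821). No share over all probes is given for groups of 3 arrays between the days. The mean difference between the days was 0.25 (SE 0.09), with an unadjusted p under 0.05 and an adjusted p of 0.163, and it was 0.11 with quantile normalization. Sod2, in mitochondria, ranged from -0.28 to 0.41 over the 12 arrays, and its day difference of 0.03 (SE 0.12) was smaller than the spread between rats (pooled SD 0.21).

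Of the 9 members tested, 1 had an adjusted p under 0.05 between the days, beside 421 of the 23209 probes tested (1.81%), of which 243 were higher at day 28. An unadjusted p under 0.05 was reached by 2 members, both higher at day 28, against 19.2% of all probes. Groups of 6 arrays that did not overlap were found for 1 member and for 3.73% of the probes with a value on every array. The median difference of the members was 0.03, and that of all probes 0.01. Counting signs alone, 6 members were higher at day 28 and 3 lower, although Sod2 and Gclc changed sign with the normexp background. Leaving out a single array changed the sign of Sod2, Cat, Hmox1 and Gclc.

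**Figure D1:**
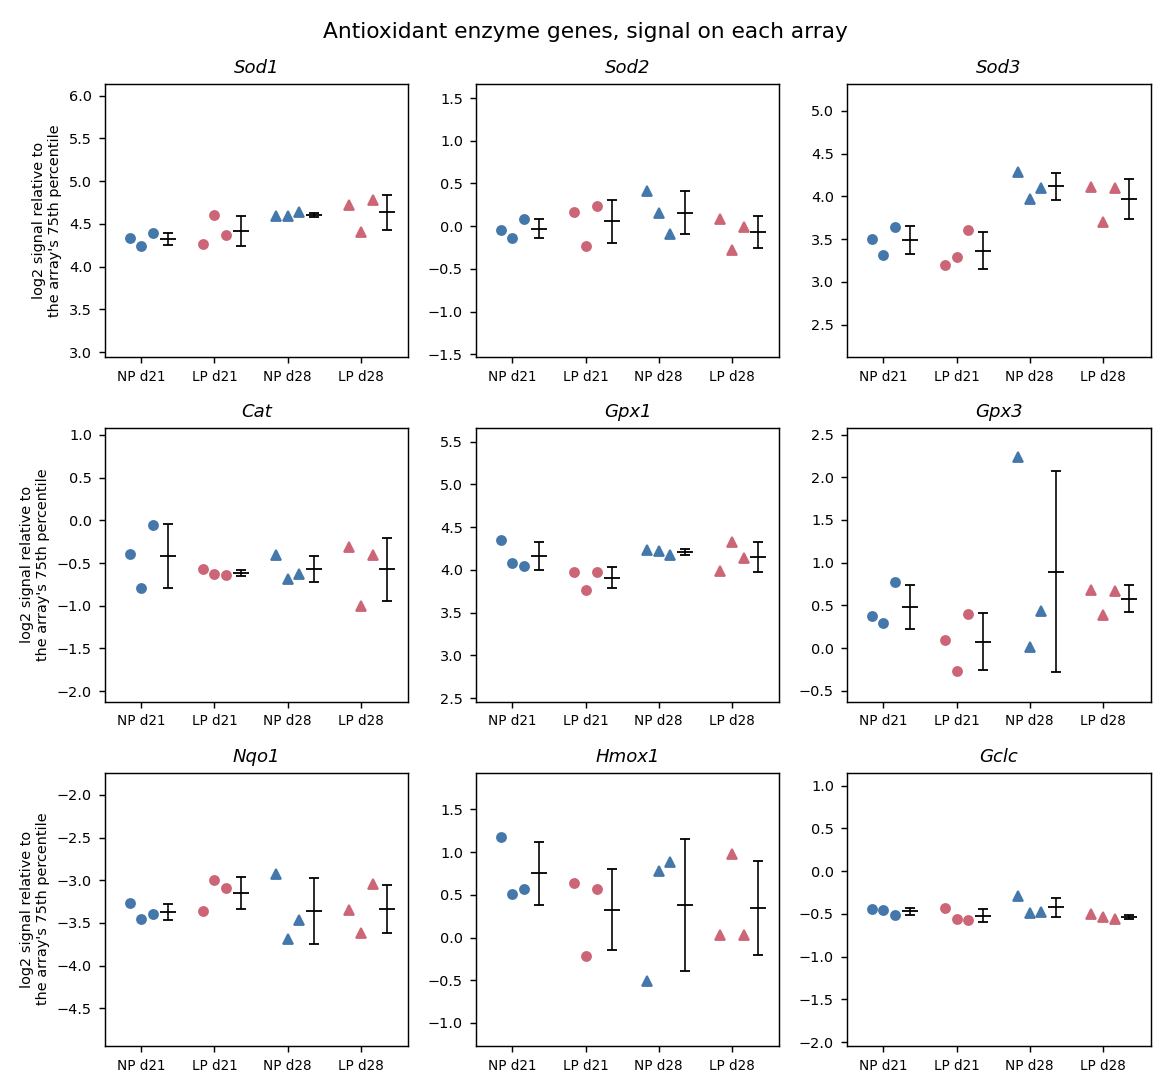
Each point is 1 array, and the y axis is the log2 signal of the gene's probe relative to the array's 75th percentile, with all panels spanning the same number of log2 units. Circles are day 21, triangles day 28, blue NP and red LP, and the bars are the mean and SD of 3 rats. For Sod3 all triangles lie above all circles, from 3.70 to 4.28 against 3.20 to 3.65, and 1 NP array of day 28 stands at 2.23 for Gpx3.

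Markers of other cells that differed between the days were set beside Sod3. The adipocyte markers, of which Cfd had the highest signal, summed to between 178.5 and 259.0 at day 21 and between 231.7 and 353.6 at day 28. Of these 8 genes, Retn (resistin) rose by 0.69 (SE 0.13, adjusted p = 0.0384 in limma), and its arrays of the 2 days did not overlap. Its call was lost with quantile normalization (0.52, adjusted p = 0.0944) and without each of 10 single arrays, all but LP 7c of day 21 and LP 6f of day 28 (adjusted p from 0.0565 to 0.0889). By sign 6 of the 8 were higher at day 28 and 2 lower, with an unadjusted p under 0.05 for Retn and Cfd (0.61), which were higher, and for Lep, which was lower (-0.85, or -0.53 without the NP array 4f of day 28). The mean log2 of the list overlapped between the days (2.60 to 3.09 against 2.74 to 3.16). The erythroid markers, led by the globin gene Hba-a2, summed to between 172.8 and 249.0 at day 21 and between 121.6 and 208.4 at day 28, and Alas2 and Slc4a1 were lower at an adjusted p under 0.05. A further marker, Epb42, also passed, but it was well above background only on the 3 NP arrays of day 21 and is not counted. Alas2, the erythroid enzyme of haem synthesis, fell by 1.83 (SE 0.20, adjusted p = 0.00517). The part of these cells in the Sod3 result was not tested.

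Among the enzymes that remove hydrogen peroxide, Gpx1 (cytosolic glutathione peroxidase) was measured by 10 spots per array. Its log2 signal was 4.35, 4.08 and 4.05 on the NP arrays of day 21 and 3.98, 3.77 and 3.98 on the LP arrays. All 3 LP values lay below all 3 NP values, by a small gap, with the LP array 6a lowest. The LP mean was lower by 0.25 (SE 0.12), a difference with an adjusted p of 0.861. The difference was -0.18 without array 6a and -0.16 without the NP array 4a. At day 28 the NP arrays gave 4.23, 4.22 and 4.17 and the LP arrays 3.98, 4.32 and 4.14, so that the groups overlapped.

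Gpx3, the secreted glutathione peroxidase, had the widest spread of the members tested (pooled SD 0.63 between rats of a group, against a median SD of 0.03 between its spots on an array). Its signal was 0.37, 0.29 and 0.77 on the NP arrays of day 21 and 0.09, -0.26 and 0.40 on the LP arrays. On the NP arrays of day 28 it was 2.23, 0.01 and 0.44, and on the LP arrays 0.67, 0.39 and 0.67. The groups overlapped on both days, and the value of 2.23 belongs to array 4f, which also stood apart over all probes. LP minus NP at day 28 was -0.32 (SE 0.47) with that array and 0.35 without it. The sum of the 4 brown adipocyte markers was 13.5 on the same array, against 3.98 to 8.56 on the other 11, but it is nearly all Cidea, the only one of the 4 that stood well above background on every array. Ucp1 was not well above background on array 4f. The part of such cells in its Gpx3 signal was not tested.

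The Gpx3 and Hmox1 probes are shown because these 2 genes varied most between rats. The array annotation places the Gpx3 probe on the rat build rn4 at chr10:40316128-40317595, a span of 1468 bases for a probe of 60, so that the probe joins separate stretches of the genome, and the Hmox1 probe at chr19:13969336-13969395, both on the plus strand. No part is set in capitals.
Gpx3: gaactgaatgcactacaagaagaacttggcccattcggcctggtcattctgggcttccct
Hmox1: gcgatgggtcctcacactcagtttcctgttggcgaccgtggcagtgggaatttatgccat

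Cat (catalase, in peroxisomes) ranged from -0.997 to -0.06 over the 12 arrays. Its NP values at day 21 were -0.40, -0.80 and -0.06, and its LP values of that day were -0.57, -0.63 and -0.64. The LP values fell inside the NP range. The group means differed by -0.20 (SE 0.21) at day 21 and by less than 0.01 at day 28, within the spread between rats (pooled SD 0.27). The difference at day 21 was -0.0169 without the NP array 6a.

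Hmox1, the inducible enzyme of haem breakdown, was also read from 10 spots. It gave 1.18, 0.51 and 0.57 on the NP arrays of day 21 and 0.63, -0.22 and 0.57 on the LP arrays. At day 28 it gave -0.51, 0.78 and 0.88 on the NP arrays and 0.03, 0.98 and 0.03 on the LP arrays. Within each group a single array lay far from the others, in NP rats of day 28 array 4f, and all groups overlapped. LP minus NP at day 21 was -0.42 (SE 0.42), and it was -0.15 without the LP array 6a and -0.21 without the NP array 4a. The pooled SD was 0.56 over the arrays of a group and the median SD 0.04 over the spots of an array. With 1 array per rat, differences between rats and between hybridizations cannot be told apart. Nqo1, which reduces quinones, had values between -3.68 and -2.93, and no pair of groups was apart. Its LP minus NP difference was 0.22 (SE 0.20, or 0.15 without the LP array 6a) at day 21 and 0.02 (SE 0.20) at day 28.

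Gclc, the catalytic subunit of glutamate-cysteine ligase, varied least, with a pooled SD of 0.07 between rats. On the NP arrays of day 28 it was -0.29, -0.49 and -0.48, and on the LP arrays -0.51, -0.54 and -0.56. All LP values of day 28 lay below the NP values, by a margin smaller than the median SD between its 2 spots (0.08). The difference was -0.12 (SE 0.09) with an adjusted p of 0.614, and it was -0.05 without the NP array 4f. At day 21 the groups overlapped.

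Between LP and NP rats, 0 of the 9 members had an adjusted p under 0.05 in limma at day 21, and 0 at day 28, as for all 23209 probes (0% on both days). At an unadjusted p under 0.05 the count was also 0 on both days, against 4.36% of all probes at day 21 and 8.07% at day 28. Arrays of LP and NP rats did not overlap for 1 member at day 21 (Gpx1), where 11.5% of all probes did not, and for 1 at day 28 (Gclc), where 16.8% did not. The median LP minus NP difference of the members was -0.12 at day 21 and -0.06 at day 28, beside 0.01 and -0.05 for all probes. By sign, 3 members were higher and 6 lower in LP rats on each day, but these signs were not stable. At day 28 Sod1 and Nqo1 changed sign with the normexp background and Cat with the deposited table. Leaving out a single array changed the sign of Sod1 at day 21, and of Sod1, Cat, Gpx1, Gpx3, Nqo1 and Hmox1 at day 28.

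Markers of 3 cell types differed in sum between the diets without overlap, among the 11 lists, and are set beside these counts, a choice made after their values were seen. The lymphocyte markers summed to 15.7, 14.3 and 14.1 on the NP arrays of day 21 and to 13.2, 0.304 and 10.3 on the LP arrays, and at day 28 to 19.0, 18.7 and 14.9 on the NP arrays and 13.5, 11.8 and 7.64 on the LP arrays. The LP sums were below the NP sums on both days, also apart from array 6a, and all 7 genes were lower by sign in LP rats, 5 of them with no overlap on each day. The luminal epithelial markers at day 28 summed to 13.8, 28.9 and 27.2 on the NP arrays and to 33.7, 34.9 and 31.1 on the LP arrays. All 7 were higher by sign in LP rats on both days. Of these, Elf5 differed by 0.0091 at day 28 and was not higher without the NP array 4f. At day 21 the luminal sums overlapped, and the mean log2 overlapped on both days. The erythroid sums of day 28 were 121.6 to 131.2 in LP rats and 134.6 to 208.4 in NP rats, again with overlap in the mean log2. The basal and myoepithelial sums overlapped on both days, but 5 of the 6 genes were higher by sign in LP rats on each. The median differences were 0.85 and 0.86, beside 0.77 and 0.53 for the luminal list. These medians rest in part on the arrays that stood apart, and are not given without them. The LP array 6a had the highest mean log2 of day 21 in the basal list (0.56) and the luminal list (2.44). The NP array 4f had the lowest of day 28 in both (-2.00 and 0.34). Without array 4f, Acta2 and Oxtr were not higher in LP rats at day 28. At day 28 Krt14 and Krt17 lay above the NP arrays without overlap and Tp63 below. Among lists with overlapping sums at day 21, all 6 skeletal muscle markers were lower by sign in LP rats (median -1.89). So were 7 of the 8 macrophage markers (median -0.27). The LP sums of that day ran from 0.651 to 75.1 for muscle and from 35.7 to 87.3 for macrophages. In all 11 lists 0 genes had an adjusted p under 0.05 in limma between the diets on either day. An unadjusted p under 0.05 was reached by 3, the luminal Cldn3 at day 21 (0.91, or 0.51 without the LP array 6a), the liver gene Alb at day 21 (-1.40, or -0.79 without the LP array 4a) and Tp63 at day 28 (-0.40). The part of these cells in the differences of the members between the diets was not tested.

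The counts of members do not show that the levels were equal. At day 21 the 95% interval of the LP minus NP difference ran from -0.52 to 0.02 for Gpx1, and from -1.44 to 0.64 for Gpx3. At day 28 the narrowest was that of Gclc, from -0.31 to 0.08, and that of Gpx3 was again the widest, from -1.36 to 0.73. A change of the LP minus NP difference between the days was called for 0 of 9 members with an adjusted p under 0.05 (0% of all probes) and for 0 with an unadjusted p under 0.05 (2.26% of all probes). For this change the members' median was -0.03 and that of all probes -0.04.

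**Figure D2:**
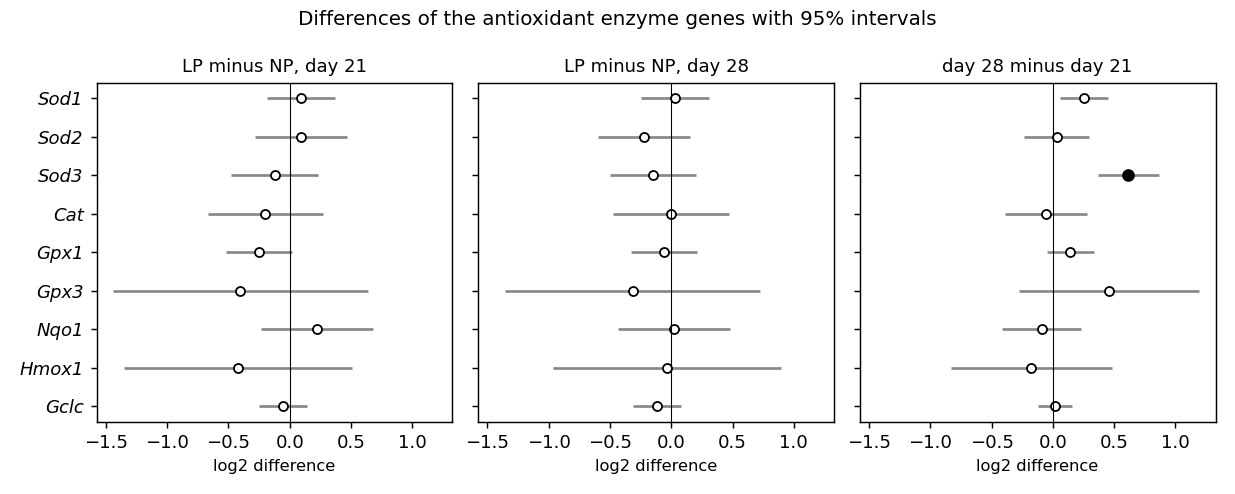
Points are log2 differences of group means from limma, and lines their 95% intervals, for LP minus NP at each day and for day 28 minus day 21 over both diets. The single filled point is Sod3 between the days (0.62, adjusted p under 0.05), and the open points are differences that did not pass.

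Other genes of the same pathways were taken from 8 lists, with 104 genes tested. Between LP and NP rats 0 of these had an adjusted p under 0.05 on either day. At day 21 an unadjusted p under 0.05 was reached by 2 genes higher and 2 lower in LP rats, 3.85% of the list genes against 4.36% of all probes. The higher ones were Gstm5, a glutathione transferase (0.59, SE 0.16), and Mt2A, a metallothionein (0.70, SE 0.30, but 0.46 without the LP array 6a and 0.44 without the NP array 6a). The lower ones were Ncf4, a subunit of the phagocyte NADPH oxidase (-0.60, SE 0.23, but -0.27 without the LP array 6a), and the sestrin gene Sesn2 (listed as RGD1566319, -0.33, SE 0.13, but -0.19 without the NP array 6a).

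At day 28 the counts were 5 higher and 2 lower, 6.73% of the list genes, which is below the 8.07% of all probes. Prdx1 (peroxiredoxin 1) was higher by 0.43 (SE 0.17), Txn1 (thioredoxin 1) by 0.31 (SE 0.12), and Blvra (biliverdin reductase) by 0.31 (SE 0.11). Gstm5 was again higher, by 0.59 (SE 0.16), and Gpx8 by 0.40 (SE 0.18), which was 0.20 without the NP array 4f. The lower ones were Abcc1, an exporter of glutathione conjugates (-0.28, SE 0.12, but -0.18 without the NP array 4f), and Secisbp2, which serves selenoprotein synthesis (-0.38, SE 0.15). All 7 had an adjusted p of 0.581 in limma. The LP and NP arrays overlapped for Gpx8 and for none of the other genes named here. These had been picked by a low p, and 16.8% of all probes did not overlap at day 28.

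Between the days, 2 of the 104 genes (1.92%) passed the adjusted test, both lower at day 28, a share close to the 1.81% of all probes. Fech, the last enzyme of haem synthesis, was -1.26, -1.39 and -1.02 on the NP arrays and -1.23, -1.06 and -1.32 on the LP arrays of day 21. At day 28 it was -1.80, -1.76 and -1.87 on the NP arrays and -1.83, -1.79 and -1.54 on the LP arrays. No array of day 28 reached the level of day 21, and the mean fell by 0.55 (SE 0.09, adjusted p = 0.0195 in limma), beside the fall of Alas2 given above. The call was lost without the NP array 6a of day 21 (-0.50, adjusted p = 0.0506) and without the LP array 4f of day 28 (-0.52, adjusted p = 0.0587). Gstm5 fell by 0.60 (SE 0.11, adjusted p = 0.0320), with overlap between the days, and its call was lost without each of 9 single arrays, all but LP 4a of day 21 and NP 6f and LP 7f of day 28 (adjusted p from 0.0516 to 0.0775).

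By list, the genes higher and lower at day 28 with an unadjusted p under 0.05 were as follows. Of 12 superoxide and peroxide enzymes 1 was higher (Gpx8, 0.29) and 2 lower (Prdx4, -0.39, with no overlap, and Gpx7, -0.42, or -0.27 without the NP array 4f). Of 16 thioredoxin and glutaredoxin genes 1 was higher (Glrx1, 0.26) and 1 lower (Sesn2, -0.27). Of 22 glutathione genes 3 were higher, among them Mgst2 (0.69) and Gsta3 (0.77), and 4 lower. Of the 9 regulators of Nrf2, 0 were higher and 1 was lower (Mafg, -0.16). Of 19 further Nrf2 targets 5 were higher and 0 lower, among them Tkt (transketolase, 0.62) and Ftl (ferritin light chain, 0.33, or 0.17 with quantile normalization). In the haem list of 8, 1 was higher (Hp, 0.41) and 2 lower (Fech and Blvra, -0.22). Of 7 metallothionein and selenoprotein genes 2 were higher (Mt2A, 0.56, and Mt1a, 0.39) and 1 lower (Mt3, -0.56). Of 11 NADPH oxidase and xanthine oxidase genes 3 were higher, among them Cybb (0.54, or 0.37 without the LP array 6a) and Nox1 (0.71, or 0.49 without it), and 0 lower. Over the 104 genes the counts were 16 and 11, 26.0% against 19.2% of all probes, and the median difference was 0.04 against 0.01.

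The remaining marker lists had 0 genes with an adjusted p under 0.05 in these 3 comparisons. The macrophage markers, led by Lyz2, summed to between 35.7 (array 6a) and 87.3 at day 21 and between 90.5 and 123.5 at day 28, but the sum is mostly Lyz2 on all arrays other than the LP array 6a of day 21. By sign 6 of the 8 were higher at day 28 and 2 lower (Csf1r, -0.11, and Cd163, -0.07), with a median difference of 0.28. An unadjusted p under 0.05 was reached by 3, all higher, namely Lyz2 (0.66, or 0.37 without that array), Cd68 (0.54, or 0.35 without it) and C1qb (0.41). The mean log2 of the list overlapped between the days (0.54 to 1.43 against 1.26 to 1.91), and the part of these cells in the Sod3 result was not tested. The luminal epithelial markers, led by Krt18, ranged from 13.8 to 57.5 over the 12 arrays, and the liver markers, led by Alb, from 0.437 to 7.95, with Alb higher at day 28 by 1.65 at an unadjusted p under 0.05 (adjusted p = 0.0786). The basal and myoepithelial sums, with Tp63 highest, lay between 5.69 and 13.3, the endothelial ones, led by Kdr, between 12.3 and 23.5, and the fibroblast ones, led by Col1a1, between 193.4 and 314.4. Of the 4 endothelial markers 2 were lower at day 28 at an unadjusted p under 0.05, Tek (-0.46, adjusted p = 0.109) and Cdh5 (-0.31, adjusted p = 0.211), and without the NP array 4f of day 28 Tek passed the adjusted test (-0.56, adjusted p = 0.0447). In the lymphocyte, luminal, basal, fibroblast, brown adipocyte and skeletal muscle lists 0 genes reached an unadjusted p under 0.05 between the days. Skeletal muscle markers varied most, from 0.651 to 75.1. The part of these cells in the day differences of the members was not tested.

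Of the 9 members tested, for the 4 with the largest range of group means, the genes with the most similar profile over the 12 arrays were sought among 17430 others, as a description. For Sod3 they were Ces1e (Pearson r 0.96), Retn (0.93) and RGD1310794 (0.93), and for Sod1 they were Slc25a35 (0.94), Nit1 (0.93) and Pcsk4 (0.93). For Gpx3 they were Ell (0.96), Nr1h3 (0.95) and Mettl7a (0.95), and for Hmox1 Sri (0.89), Trim27 (0.88) and Capza1 (0.88). The Sod3 profile separates the days, and array 4f is the highest of the Gpx3 profile. Among the members tested, the highest r over the 12 arrays was that of Sod1 and Sod3 (0.76, and 0.55 after subtraction of the group means). The lowest was that of Nqo1 and Hmox1 (-0.72, and -0.76 after subtraction). After subtraction the highest was that of Sod3 and Cat (0.78, from 0.26 over the 12 arrays).

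Promoter sequences from RefSeq (build GRCr8, 300 bases around the transcription start) were found for 8 of the 10 genes, without Sod3 and Hmox1. The letters TGACNNNGC, the core of the antioxidant response element, searched on both strands, occurred in 2 of the 8, Sod2 and Gclm, and in 12.1% of 33469 promoters of that length.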

How the data were processed

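Total RNA of 12 rats was measured on 1-colour Agilent arrays. Per the file headers, the scanner intensity of each spot was made with Feature Extraction 10.7.3.1, which subtracted the background, with arrays left unscaled. A second deposited table gives the ratio of each processed signal to the median of its array, and served as an alternative. From the intensities, 4259 control spots were dropped, as were the 259 to 766 spots of each array marked as outliers. Log2 values are relative to the array's 75th percentile, and spots of a probe were averaged. A probe was tested when at least 0.5 of its spots were well above background on 3 or more of the 12 arrays (23209 of 30367 probes), in 1 fit over 4 groups by the lmFit and eBayes functions of limma 3.58.1 (R 4.3.3), with two-sided tests and Benjamini-Hochberg adjustment over all tested probes. Tables were handled with data.table (version 1.17.8), and figures were drawn with matplotlib 3.10.9.

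The members and lists were chosen with earlier results of these data known. A list gene with several probes was represented by the probe well above background on most arrays, and then by the brightest. Of each pathway list, up to 3 genes with the lowest p among those with an unadjusted p under 0.05 were named for each diet comparison and for the days. The results of some of them are not reported here, although the counts include them. List symbols were matched to the array's names, or through RefSeq synonyms (GRCr8) where a single one was on the array. Gsta1 and Pgd were not matched, and Gpx5, Gstm3, Dio2 and Elovl3 were too dim to test. The alternatives were quantile normalization, normexp (offset 50), no filter, a filter requiring all 12 arrays, separate fits for each day, eBayes with robust estimation and a trend, a block for the replicate number, a covariate for the row on the slide, the deposited ratios, and leaving out each array. For the list genes, leaving out arrays and quantile normalization were added after the data were seen. The limma fit alone was run on simulated log2 values of probes, in which 200 probes had been changed. It returned the simulated differences on average, which a difference of group means does by construction. The reading of spots, the scaling and the averaging of spots were not covered.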

Additional observations from a re-analysis of the deposited data

How the results depend on the processing

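Between LP and NP rats 0 members passed the adjusted test under any alternative. At an unadjusted p under 0.05 the count at day 21 was 1 with quantile normalization (4.64% of all probes) and 1 with trend and robust estimation (4.48%), and between 0 and 1 when single arrays were left out (2.08% to 8.63%). For the change of LP minus NP from day 21 to day 28 it was also between 0 and 1 (1.66% to 3.71%). Each member had 1 probe, so that averaging probes gives the same values. With the row on the slide as a covariate, 2.26% of all probes at day 21 had an unadjusted p under 0.05 between the diets, and 3.6% at day 28. In the main fit these shares were 4.36% and 8.07%.

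Between the days the count of members past the adjusted test was 0 with quantile normalization, where 1.93% of all probes passed against 1.81% in the main fit, and 1 at an unadjusted p under 0.05 (18.8% of all probes). Without single arrays it was between 0 and 1, and 0.427% to 1.71% of all probes passed. The Sod3 difference then ran from 0.57 to 0.68. The adjusted p was above 0.05 without NP arrays 4a (0.0622), 5a (0.0692) or 6a (0.0618) or LP arrays 4a (0.0704) or 6a (0.0716) of day 21, and without NP array 6f (0.0534) or LP arrays 4f (0.0775) or 7f (0.0696) of day 28. Over all alternatives it lay between 0.0207 and 0.0775. The cause was not tested.

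With the replicate number within each diet as a block, 0 members and 0.0905% of all probes passed between the days, against 1.81% of probes in the main fit. An unadjusted p under 0.05 was reached by 1 member (18.2% of all probes). Sod3 was again 0.62, with an adjusted p of 0.0687. The labels do not say what the number marks, and deviations of same-numbered arrays correlated between -0.03 and 0.38 within a diet and between 0.05 and 0.12 across diets. For LP minus NP the block was the number alone, over both diets. The NP arrays 5a and 5f and the LP arrays 7c and 7f had no counterpart of that number in the other diet. In this block, LP minus NP at day 28 was -0.0205 for Sod1, -0.16 for Cat, -0.17 for Nqo1 and 0.0260 for Hmox1, each of opposite sign to the value above.

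Other differences of opposite sign were small. With the normexp background, LP minus NP at day 28 was -0.0906 for Sod1 and -0.0343 for Nqo1, day 28 minus day 21 was -0.0066 for Sod2 and -0.0177 for Gclc, and the change between the days was 0.0866 for Sod3. With the row on the slide, it was 0.0061 for Gclc at day 21, and -0.0028 for Sod1 and -0.0898 for Nqo1 at day 28. With the deposited table it was -0.0066 for Cat at day 28, and with quantile normalization the change was 0.0010 for Sod1 and 0.0610 for Sod3. Some differences kept their sign but shrank. With the row on the slide, LP minus NP at day 21 was -0.0499 for Cat, 0.11 for Nqo1 and 0.0592 for Sod1, and at day 28 -0.0917 for Sod2 and -0.0577 for Gclc. In the block it was 0.0415 for Sod1, 0.0031 for Sod2 and 0.0350 for Nqo1 at day 21. With quantile normalization, day 28 minus day 21 was 0.11 for Sod1 and 0.0332 for Gpx1.

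Leaving out single arrays gave LP minus NP at day 21 from -0.0045 to 0.17 for Sod1, 6e-04 to 0.23 for Sod2, -0.24 to -0.0392 for Sod3, -0.39 to -0.0169 for Cat, -0.31 to -0.16 for Gpx1, -0.56 to -0.23 for Gpx3, 0.15 to 0.33 for Nqo1, -0.58 to -0.15 for Hmox1 and -0.0962 to -0.0286 for Gclc. At day 28 it gave -0.0439 to 0.15 for Sod1, -0.13 to 0.21 for Cat, -0.15 to 0.0247 for Gpx1, -0.76 to 0.35 for Gpx3, -0.14 to 0.24 for Nqo1, -0.48 to 0.22 for Hmox1, -0.35 to -0.0974 for Sod2, -0.22 to -0.0138 for Sod3 and -0.15 to -0.0520 for Gclc. Between the days it gave -0.0415 to 0.0921 for Sod2, -0.15 to 0.0485 for Cat, -0.33 to 0.0488 for Hmox1, -0.0152 to 0.0388 for Gclc, 0.22 to 0.31 for Sod1, 0.10 to 0.19 for Gpx1, 0.12 to 0.68 for Gpx3 and -0.20 to -0.0087 for Nqo1. For the change of the difference it gave -0.14 to 0.0535 for Sod1, -0.11 to 0.11 for Sod3, -0.35 to 0.76 for Gpx3, -0.36 to 0.0146 for Nqo1, -0.0548 to 0.64 for Hmox1 and -0.10 to 5e-04 for Gclc.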
